A study of Mus musculus with 16 samples.

Results

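The genes described here are 44 mouse enzymes of glutathione metabolism and antioxidant defence, out of 24934 genes listed in any of the 4 deposited tables of the study. They were chosen by symbol: 21 glutathione transferases, 5 glutathione peroxidases, 4 enzymes of glutathione synthesis and reduction, 6 peroxiredoxins, 2 thioredoxin system genes, 3 superoxide dismutases with catalase, and the quinone and heme enzymes Nqo1 and Hmox1. RNA sequencing was done on total RNA from liver and 3 fat depots (brown, epididymal white and inguinal white) of 24-week-old C57BL/6 mice. Each tissue had 2 libraries of mice given sunitinib (Sutent), an oral drug that blocks several receptor tyrosine kinases, and 2 libraries of mice given vehicle, 16 libraries in all. The labels used here do not state dose, duration of treatment or sex. The study states 8 mice, 4 per treatment, and the labels do not tie a library to a mouse or a pool, so a p-value here speaks of the spread between libraries, which may be technical.

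Glutathione is a small peptide whose thiol group carries reducing power. Its synthesis starts with glutamate-cysteine ligase (Gclc and Gclm), glutathione synthetase (Gss) completes it, and glutathione reductase (Gsr) restores it after use. Glutathione transferases attach it to electrophiles such as drugs and products of lipid peroxidation, and glutathione peroxidases spend it on hydrogen peroxide and lipid peroxides. Peroxiredoxins, fed by thioredoxin, and catalase remove peroxides as well, and superoxide dismutases make peroxide from superoxide. Liver is known for a high content of these enzymes, and in fat they meet the lipid peroxides and mitochondrial oxidants of adipocytes.

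Values are regularized log2 expression (rlog), so that a difference of 1 is a doubling, computed by the authors for each tissue apart. Read totals cannot be recovered from them, and the sequencing depth is unknown. The tissue labels were checked against marker genes. The brown fat marker Ucp1 was at 16.46 to 16.93 in brown fat and at or below 7.58 in the other tissues. The adipocyte marker Adipoq was at 13.46 to 16.21 in the fat libraries and at 5.30 to 5.76 in liver, and the hepatocyte marker Alb was at 20.13 to 20.33 in liver and at 9.32 to 10.81 in fat. Markers of other cells differed between libraries. The mean of 12 skeletal muscle markers was 11.16 and 8.17 in the sunitinib libraries of inguinal fat, against 13.21 and 12.24 in its vehicle libraries, and 9.76 and 9.20 in the sunitinib libraries of brown fat, against 7.98 and 11.79 in its vehicle libraries. In inguinal fat, sunitinib replicate 1 was above sunitinib replicate 2 for 39 of 43 members, where 51.4% of all genes tested were.

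In epididymal fat of sunitinib-treated mice, RNA for 3 of the 44 enzymes rose: the extracellular peroxidase Gpx3, the alpha transferase Gsta4, which conjugates the lipid peroxidation product 4-hydroxynonenal, and the theta transferase Gstt1. No member fell there, and in brown fat, inguinal fat and liver 0 members passed the test in either direction. A gene passed when its p from limma, adjusted by Benjamini-Hochberg over all genes tested in that tissue, was below 0.05. Genes with a mean rlog value of at least 3 were tested, which kept 43 members in each tissue. Gsta2 was not in the brown fat table and was below this level in both white fats, and Mgst2 was below it in liver. In epididymal fat 2.34% of all genes tested passed, 0.277% higher and 2.06% lower, against 3 of 43 members. The share that passed was 0 in brown fat and in inguinal fat, and in liver 0.121% of all genes rose and 0.0726% fell.

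At an unadjusted p below 0.05, 8 members were higher and 0 lower in brown fat, where 9.13% of all genes were higher and 6.98% lower. In epididymal fat 8 were higher and 4 lower, beside 8.14% and 11.9% of all genes. In inguinal fat 0 were higher and 4 lower, beside 3.88% and 8.80%, and in liver 2 were higher and 7 lower, beside 3.47% and 5.17%. The median log2 difference of the 43 members was 0.07 in brown fat, 0.07 in epididymal fat, 0.02 in inguinal fat and -0.05 in liver, against medians of all genes between -0.00465 in brown fat and 0.01 in inguinal fat. Liver had 13 of 43 members on the positive side, where 51.4% of all genes were, and each of brown and epididymal fat had 29 of 43, where 48.4% and 53.3% of all genes were. Both sunitinib libraries lay below both vehicle libraries for 16 members in liver, where this held for 19.2% of all genes, and above them for 3, where it held for 18.3%. In brown fat the sunitinib libraries lay above for 15 members and below for 7, beside 26.2% and 24.0% of all genes. The same counts were 14 and 6 in epididymal fat, beside 27.0% and 26.8%, and 7 and 10 in inguinal fat, beside 24.0% and 26.4%.

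The counts of members that passed rest on few libraries. Without vehicle replicate 1, or without vehicle replicate 2, 0 members passed in epididymal fat, as did 0 of all genes tested. In brown fat 9 members passed without vehicle replicate 1, beside 1292 of all genes, and 1 without vehicle replicate 2, beside 656. In inguinal fat 9 passed without sunitinib replicate 1, all lower, beside 4103 of all genes, and 3 without sunitinib replicate 2, beside 733. In liver 6 passed without sunitinib replicate 4, beside 454 of all genes.

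**Figure D1:**
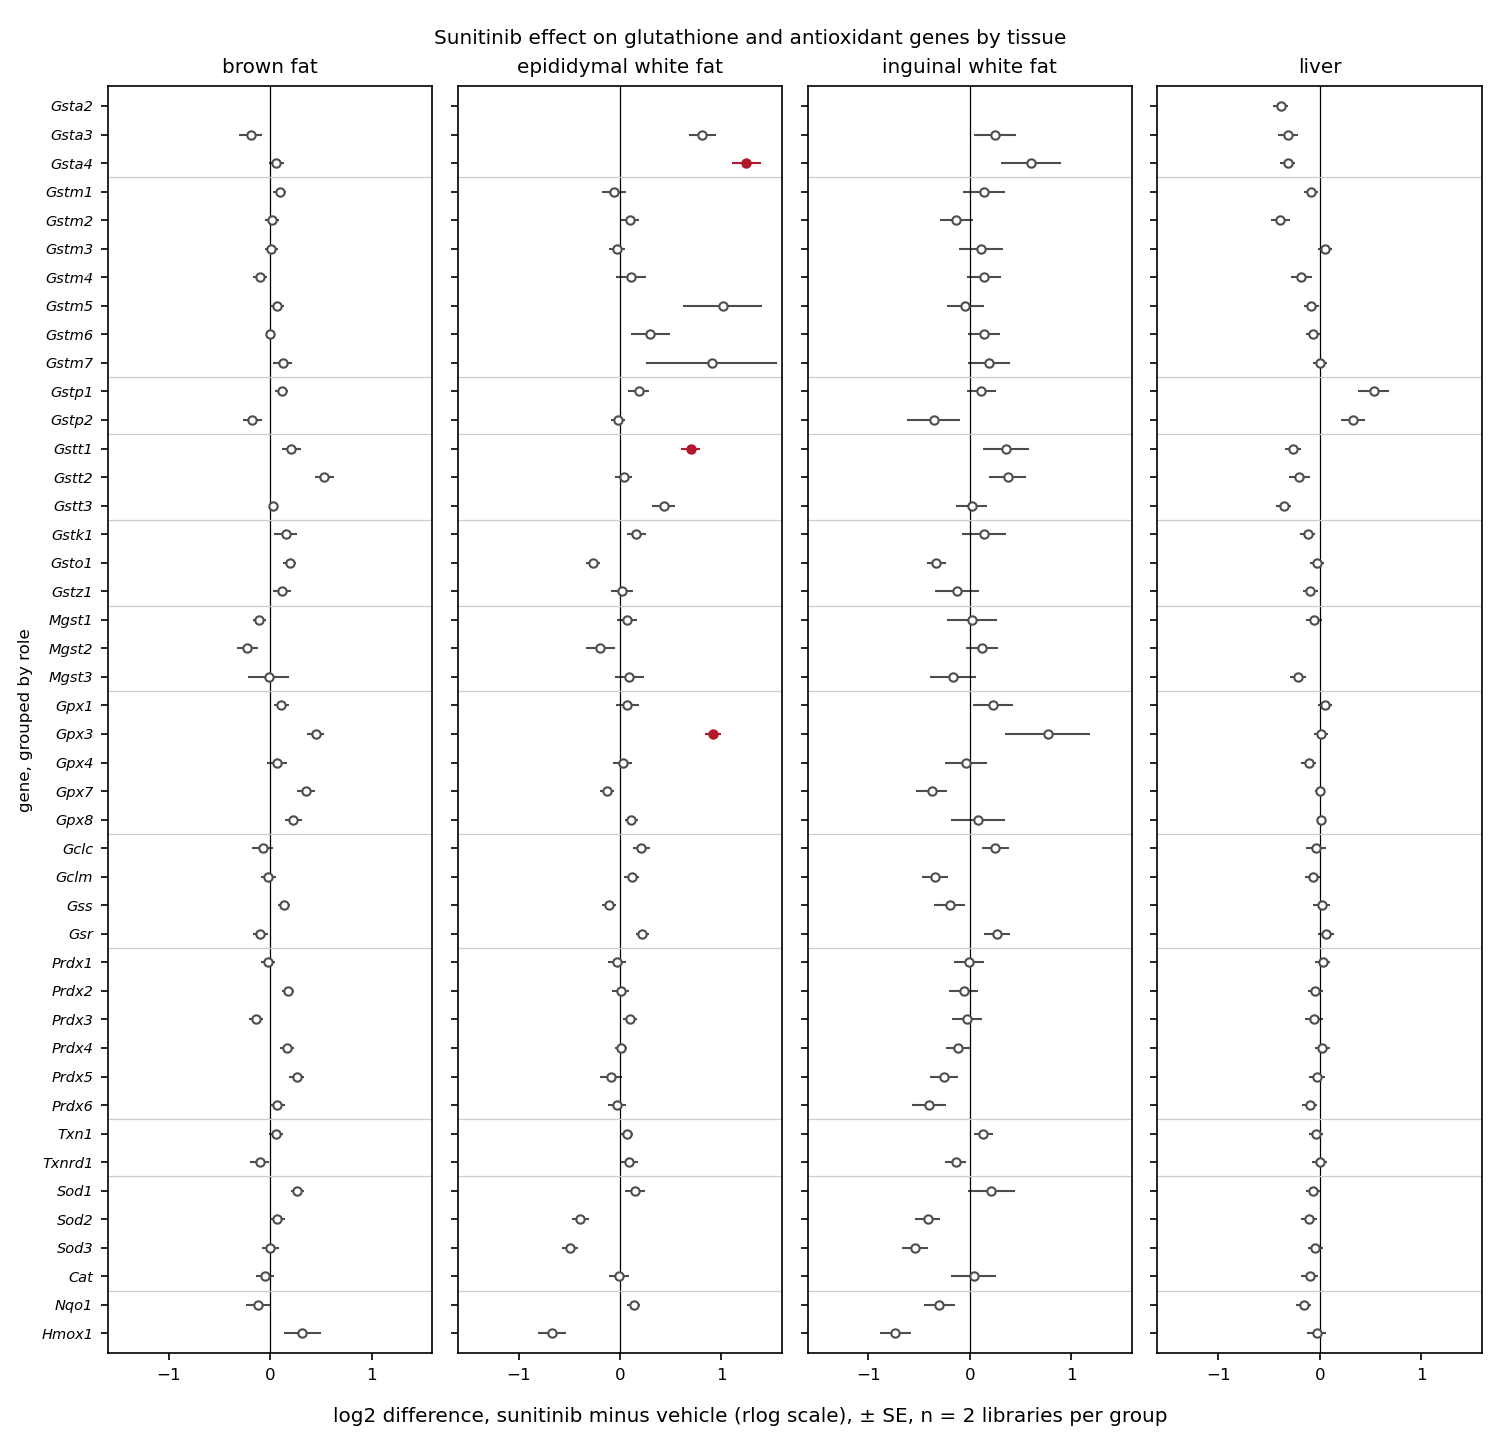
Log2 difference (sunitinib minus vehicle, rlog scale) of each member in the 4 tissues, with bars for the SE of the fit and 2 libraries per group; the genes are grouped by role. Filled red points mark the 3 members that passed in epididymal fat, Gpx3, Gsta4 and Gstt1, while most other members lie near 0.

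Among the glutathione peroxidases, Gpx3 encodes the enzyme secreted into blood plasma. In epididymal fat its rlog value was 13.58 and 13.70 in the sunitinib libraries, against 12.70 and 12.75 in the vehicle libraries. All sunitinib values lay above all vehicle values, and the difference was 0.92 ± 0.08 (log2, SE, 1.89-fold; limma adjusted p = 0.0212). In a single fit over the 4 tissues its adjusted p was 0.0914. In brown fat, where the Gpx3 level was highest, the values were 14.66 and 14.72 with sunitinib, against 14.29 and 14.19 with vehicle, a difference of 0.45 ± 0.08 that did not pass (adjusted p = 0.228). In inguinal fat the sunitinib libraries had 13.94 and 12.77, against 12.64 and 12.54 for vehicle (adjusted p = 0.481). There the sunitinib libraries were both above the vehicle libraries but lay far apart from each other. Liver had 6.43 and 6.44 with sunitinib, against 6.44 and 6.39 with vehicle, and no difference beyond the spread.

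The other peroxidases differed by less. Gpx7, a peroxidase of the endoplasmic reticulum, had 7.21 and 7.29 in the sunitinib libraries of brown fat, against 6.99 and 6.79 in the vehicle libraries (0.36 ± 0.09, adjusted p = 0.228). In both white fats its sunitinib values lay below its vehicle values, by -0.13 and -0.38, without passing. Gpx1, the main cytosolic peroxidase, Gpx4, which reduces lipid peroxides in membranes, and Gpx8 had differences between -0.11 and 0.23 over the 4 tissues. Of the distinct 50-base stretches of Gpx4 transcripts 34.7% also lie in its pseudogene Gpx4-ps2, so its reads may be shared.

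The promoters of Gpx3, Gstt1, Gstt3 and Gsta3 are shown because the response of these genes to sunitinib differed between epididymal fat and liver. Gsta4 and Sod3 differed too, but no promoter was found for them. Each window is 300 bases long, most of it before the start of transcription and the last 50 bases after it, 5′ to 3′ on the strand of the gene, from RefSeq on GRCm38.p6. Capitals mark a match to TGACNNNGC, the core of the antioxidant response element that NRF2 binds, searched on both strands.
Gpx3 promoter, chr11:54902604-54902903, plus strand: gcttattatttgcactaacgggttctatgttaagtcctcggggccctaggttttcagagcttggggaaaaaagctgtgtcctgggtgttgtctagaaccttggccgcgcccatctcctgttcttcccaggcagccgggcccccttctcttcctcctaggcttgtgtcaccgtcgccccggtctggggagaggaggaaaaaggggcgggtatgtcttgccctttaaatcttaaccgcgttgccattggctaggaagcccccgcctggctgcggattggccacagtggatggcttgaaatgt
Gstt1 promoter, chr10:75797682-75797981, minus strand: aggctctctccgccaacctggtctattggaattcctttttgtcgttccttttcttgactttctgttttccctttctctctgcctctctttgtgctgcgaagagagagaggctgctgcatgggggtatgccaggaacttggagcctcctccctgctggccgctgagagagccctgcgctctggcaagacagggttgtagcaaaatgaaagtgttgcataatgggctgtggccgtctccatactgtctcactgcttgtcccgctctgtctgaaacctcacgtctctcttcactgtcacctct
Gstt3 promoter, chr10:75781365-75781664, minus strand: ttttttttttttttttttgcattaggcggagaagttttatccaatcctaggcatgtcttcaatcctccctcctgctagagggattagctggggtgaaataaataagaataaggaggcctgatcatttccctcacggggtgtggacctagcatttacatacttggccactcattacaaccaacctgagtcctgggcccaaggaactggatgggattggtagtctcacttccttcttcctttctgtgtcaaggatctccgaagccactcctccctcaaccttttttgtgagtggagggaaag
Gsta3 promoter, chr1:21240335-21240634, plus strand: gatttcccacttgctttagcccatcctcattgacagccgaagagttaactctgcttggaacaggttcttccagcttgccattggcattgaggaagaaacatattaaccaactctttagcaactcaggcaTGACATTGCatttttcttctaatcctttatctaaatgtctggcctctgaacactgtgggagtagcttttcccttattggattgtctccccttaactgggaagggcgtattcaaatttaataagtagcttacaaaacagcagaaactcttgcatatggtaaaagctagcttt
Gsta3 holds a match, and the windows shown for Gpx3, Gstt1 and Gstt3 hold none. Promoters were found for 37 of the 44 members. Gsta4, Gstt2, Gclc, Gsr, Prdx6, Sod3 and Hmox1 had none and were not searched. A match lay in the windows of 8 members, Gclm, Gsta3, Gstm5, Gstm7, Mgst1, Prdx1, Sod1 and Txnrd1, which is 16.0% of the 50 windows of the members, against 12.4% of the 32851 windows in the table. Of these 8 members, 0 passed the test in any tissue. Only 3 members passed at all, and Gsta4 among them had no window, so no conclusion is drawn from this count.

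The alpha transferases Gsta4 and Gsta3 were higher with sunitinib in epididymal fat and lower in liver. Gsta4 had 9.10 and 8.70 in the sunitinib libraries of epididymal fat, against 7.70 and 7.62 in the vehicle libraries. The groups were well apart, and the difference was 1.24 ± 0.14 (2.37-fold, limma adjusted p = 0.0315). In inguinal fat it had 8.96 and 8.40 with sunitinib, against 7.79 and 8.36 with vehicle, groups that nearly touch (0.61 ± 0.30, adjusted p = 0.453). Liver gave 9.17 and 9.18 with sunitinib, against 9.44 and 9.54 with vehicle, so that the sunitinib libraries were the lower ones (-0.32 ± 0.07), without passing (adjusted p = 0.193). In brown fat the groups overlapped, with 9.58 and 9.68 for sunitinib and 9.62 and 9.52 for vehicle.

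Gsta3, an alpha transferase that is abundant in mouse liver, had 11.62 and 11.36 in the sunitinib libraries of epididymal fat, against 10.82 and 10.53 in the vehicle libraries. It came near the threshold without passing (0.81 ± 0.14, adjusted p = 0.0607), and it passed in 6 of 12 other settings, among them the single fit over the 4 tissues (adjusted p = 0.0315) and quantile normalization (adjusted p = 0.0422), with adjusted p up to 0.338 in the others. In liver it had 14.62 and 14.83 with sunitinib, against 14.93 and 15.14 with vehicle (-0.31 ± 0.10, adjusted p = 0.378). In inguinal fat the groups overlapped, and in brown fat the sunitinib values of 5.78 and 5.81 were just below the vehicle values of 5.83 and 6.14. Gsta2 had the smallest p of the members in liver. Its values there were 6.14 and 6.26 with sunitinib, against 6.61 and 6.56 with vehicle (-0.39 ± 0.07, adjusted p = 0.100). It shares 49.8% of its 50-base stretches with other genes, mainly Gsta1, so the reads counted for it may belong to either.

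Of the theta transferases, which act on small halogenated compounds among others, 1 of 3 rose in epididymal fat. Gstt1 had 10.38 and 10.14 in the sunitinib libraries of epididymal fat, against 9.53 and 9.59 in the vehicle libraries, with a gap between the groups (0.70 ± 0.10, 1.62-fold, limma adjusted p = 0.0438). It passed narrowly: without the filter on low values its adjusted p was 0.0706, and without the intensity trend it was 0.0518. In liver it had 12.06 and 12.17 with sunitinib, against 12.43 and 12.34 with vehicle (-0.27 ± 0.08, adjusted p = 0.309). Inguinal fat had 10.87 and 10.39 with sunitinib, against 10.09 and 10.46 with vehicle, which overlap. Brown fat had 8.63 and 8.49 with sunitinib, against 8.26 and 8.45 with vehicle (adjusted p = 0.352).

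Gstt3 had 7.19 and 6.99 in the sunitinib libraries of epididymal fat, against 6.56 and 6.76 in the vehicle libraries (0.43 ± 0.11, adjusted p = 0.130). In the liver libraries it had 9.12 and 9.22 with sunitinib, against 9.55 and 9.50 with vehicle (-0.35 ± 0.08, adjusted p = 0.145). The groups did not overlap in either tissue and had opposite order. It shares 12.2% of its 50-base stretches with a predicted gene. Gstt2 had the smallest p of the members in brown fat. It had 8.76 and 8.63 there with sunitinib, against 8.26 and 8.06 with vehicle, which was a difference of 0.53 ± 0.09 (adjusted p = 0.228). Inguinal fat had the same order, with 9.10 and 8.66 for sunitinib and 8.52 and 8.49 for vehicle (0.37 ± 0.18, limma adjusted p = 0.452). In epididymal fat and in liver the groups of Gstt2 overlapped, with differences of 0.03 ± 0.08 and -0.20 ± 0.10.

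**Figure D2:**
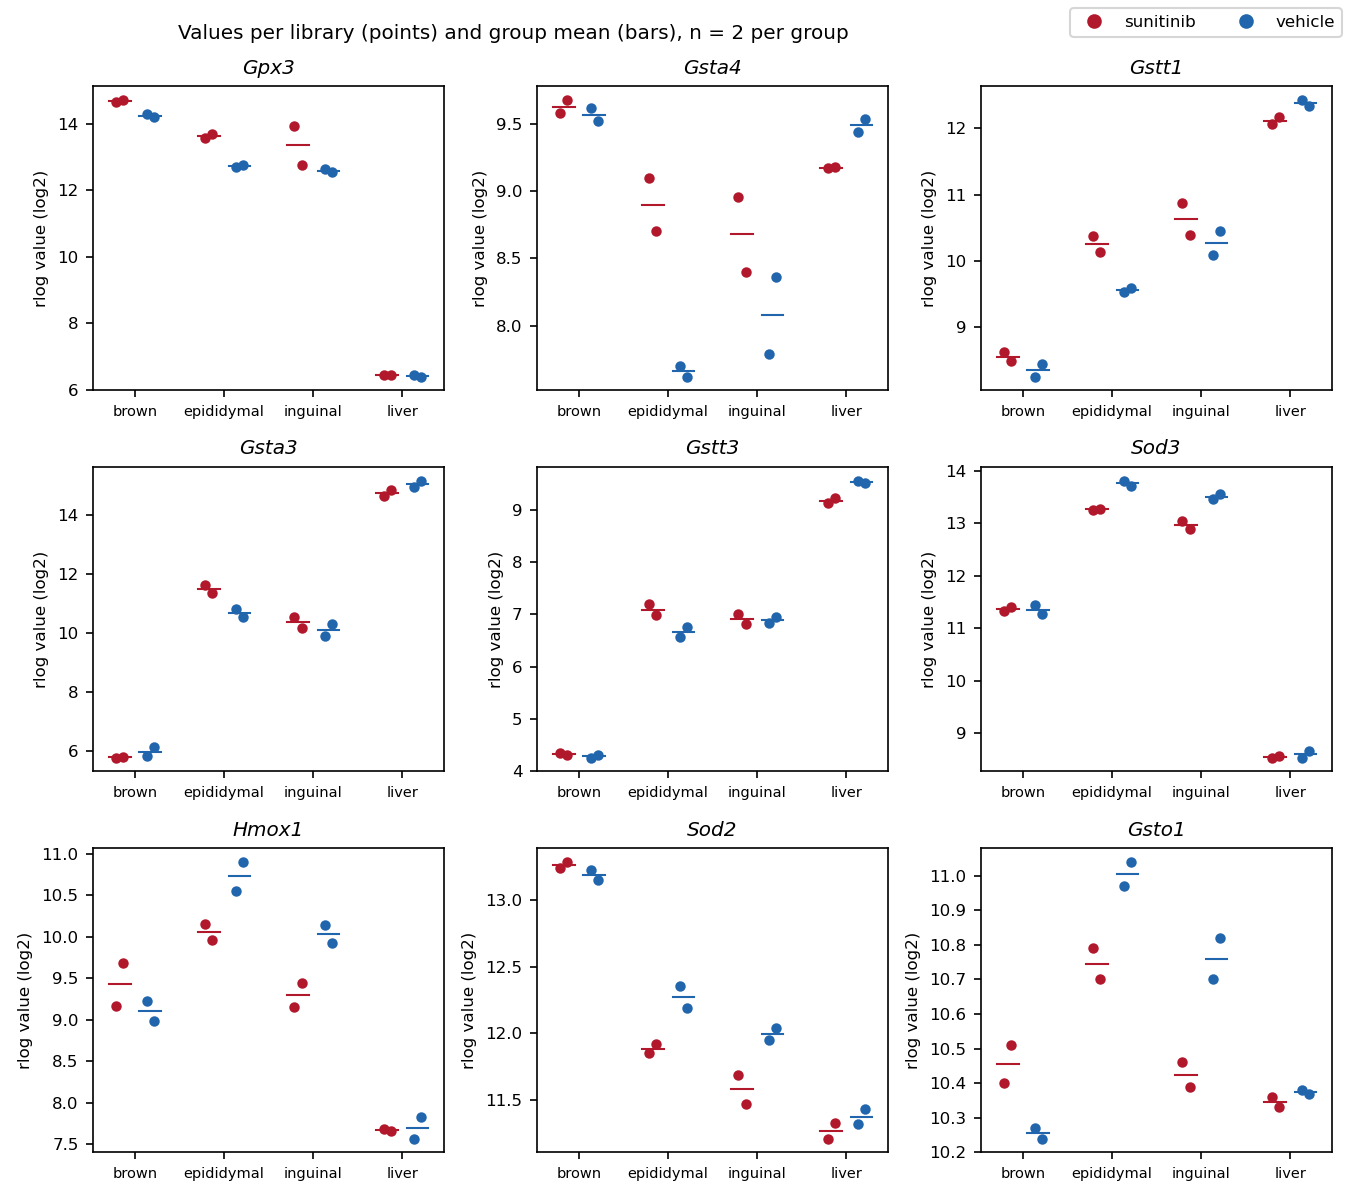
Rlog values (log2) of 9 members in every library, sunitinib in red to the left and vehicle in blue to the right within each tissue, with a bar at the mean of 2 libraries; each gene has its own vertical scale. In epididymal fat Gpx3, Gsta4, Gstt1, Gsta3 and Gstt3 have both red points above both blue points, and Sod3, Hmox1, Sod2 and Gsto1 have them below.

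Of the mu transferases, a cluster of 7 related genes, 0 passed in any tissue. In epididymal fat Gstm5 had 10.29 and 11.15 with sunitinib, against 9.28 and 10.13 with vehicle, a difference of 1.01 ± 0.39 with a wide error (adjusted p = 0.245). Gstm7 had 8.57 and 10.23 with sunitinib, against 7.91 and 9.09 with vehicle, which overlap (0.90 ± 0.65, adjusted p = 0.479). Gstm6 had 7.44 and 7.96 with sunitinib, against 7.30 and 7.51 with vehicle. In these 3 genes replicate 2 was above replicate 1 in both groups, whereas Gstm1, Gstm2, Gstm3 and Gstm4 differed between the groups by -0.06 to 0.10. In liver, Gstm2 had 9.62 and 9.89 with sunitinib, against 10.14 and 10.15 with vehicle (-0.39 ± 0.09, adjusted p = 0.201). The other 6 mu genes differed in liver by -0.18 to 0.05. Gstm1 shares 18.9% and Gstm3 28.8% of the 50-base stretches with other genes, so their reads may be shared. Gstm5, Gstm6 and Gstm7 are described here because of their values and not by the rule for naming genes.

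**Figure D3:**
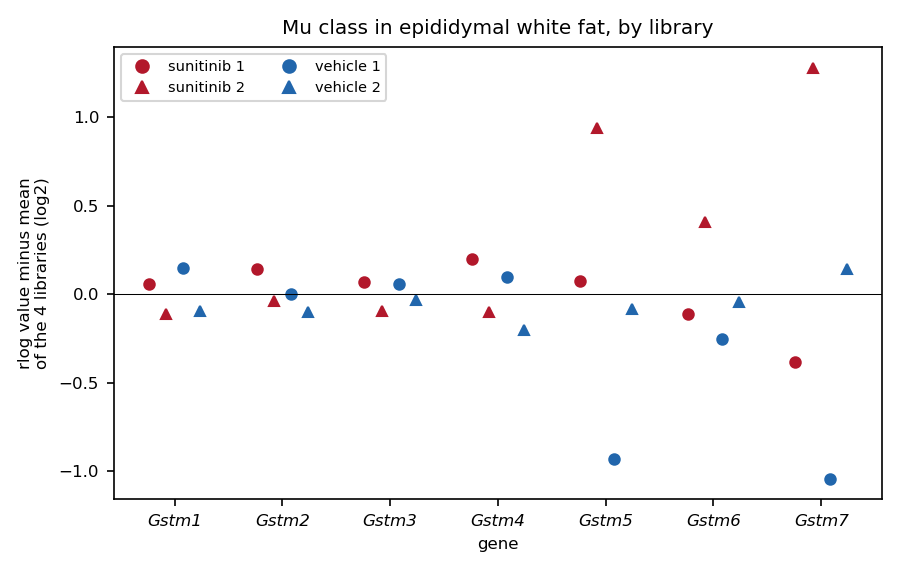
Mu class transferases in epididymal fat: each point is 1 library's rlog value minus the mean of the gene's 4 libraries (log2), sunitinib libraries left of vehicle libraries. Gstm5, Gstm6 and Gstm7 spread widely, with replicate 2 above replicate 1 in each group, and Gstm1, Gstm2, Gstm3 and Gstm4 lie closer to 0.

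The pi class had the largest positive differences of the members in liver. Gstp1 had 14.91 and 14.33 in the sunitinib libraries of liver, against 14.04 and 14.13 in the vehicle libraries, with sunitinib replicate 3 well above the other libraries (0.53 ± 0.15, adjusted p = 0.296). Gstp2 had 7.38 and 6.99 with sunitinib, against 6.83 and 6.88 with vehicle (adjusted p = 0.442). The pair share sequence, 33.7% of the 50-base stretches of Gstp1, and reads of either may be counted for the other. In the fats neither passed, with differences between -0.36 and 0.18.

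The other transferases moved little. Gsto1, of the omega class, had 10.46 and 10.39 in the sunitinib libraries of inguinal fat, against 10.70 and 10.82 in the vehicle libraries (-0.33 ± 0.10, adjusted p = 0.354). Epididymal fat had the same order, with 10.79 and 10.70 for sunitinib and 10.97 and 11.04 for vehicle (-0.26 ± 0.07, adjusted p = 0.131). Brown fat had the opposite order, with 10.40 and 10.51 for sunitinib and 10.27 and 10.24 for vehicle (0.19 ± 0.07, adjusted p = 0.274). Gstk1, of mitochondria and peroxisomes, and Gstz1, which also acts in tyrosine breakdown, had differences between -0.13 and 0.16. The membrane-bound Mgst1, Mgst2 and Mgst3 had differences between -0.23 and 0.12 in the tissues where they were tested, and 0 of them passed.

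Of the enzymes that make and restore glutathione, 0 of 4 passed in any tissue. Gclm, the modifier subunit of glutamate-cysteine ligase, had 9.06 and 8.82 in the sunitinib libraries of inguinal fat, against 9.30 and 9.26 in the vehicle libraries (-0.34 ± 0.13, adjusted p = 0.393). Its catalytic partner Gclc had the opposite order there, with 8.97 and 9.17 for sunitinib and 8.73 and 8.91 for vehicle (0.25 ± 0.13, adjusted p = 0.474). Gsr had 9.4 and 9.5 in the sunitinib libraries of epididymal fat, against 9.22 and 9.24 in the vehicle libraries (0.22 ± 0.07, adjusted p = 0.163). In liver all 4 were between -0.06 and 0.06.

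Peroxiredoxins and the thioredoxin system differed little. Over the 4 tissues, the differences of the 6 peroxiredoxins ran from -0.41 to 0.26 and those of Txn1 and Txnrd1 from -0.14 to 0.13, and 0 passed. Prdx5, found in mitochondria, peroxisomes and cytosol, had 12.50 and 12.52 in the sunitinib libraries of brown fat, against 12.19 and 12.31 in the vehicle libraries (0.26 ± 0.07, adjusted p = 0.237). In inguinal fat all 6 peroxiredoxins were on the negative side, where 51.4% of all genes were on the positive side. The groups of Prdx1, Prdx2, Prdx3 and Prdx4 overlapped there, and Prdx1 differed by only -0.008. Prdx6 differed most, with 12.81 and 12.51 for sunitinib and 12.96 and 13.17 for vehicle (-0.41 ± 0.17, limma adjusted p = 0.413). In liver the 6 peroxiredoxins lay between -0.10 and 0.03.

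Sod3, the extracellular superoxide dismutase, Sod2, the mitochondrial one, and Hmox1, which breaks down heme, had lower values with sunitinib in both white fats, and none of them passed. In epididymal fat Sod3 had 13.26 and 13.27 with sunitinib, against 13.81 and 13.71 with vehicle (-0.49 ± 0.08, adjusted p = 0.0599), and in inguinal fat 13.04 and 12.90, against 13.47 and 13.55 (-0.54 ± 0.13, adjusted p = 0.324). Hmox1 had 10.15 and 9.96 with sunitinib, against 10.55 and 10.90 with vehicle, in epididymal fat (-0.67 ± 0.14, adjusted p = 0.0881). In inguinal fat it had 9.15 and 9.44 with sunitinib, against 10.14 and 9.92 with vehicle (-0.74 ± 0.15, adjusted p = 0.313). For each of these genes the sunitinib libraries lay below the vehicle libraries without overlap in both white fats. Taken in each depot alone, this held for 26.8% of all genes in epididymal fat and 26.4% in inguinal fat. The share of all genes lower in both depots at once was not counted.

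Sod2 had 11.85 and 11.92 with sunitinib, against 12.36 and 12.19 with vehicle, in epididymal fat (-0.39 ± 0.09, adjusted p = 0.0979), and 11.69 and 11.47 with sunitinib, against 11.95 and 12.04 with vehicle, in inguinal fat (-0.41 ± 0.12, adjusted p = 0.357). It shares 21% of its 50-base stretches with other genes, so its reads may be shared. Sod1, the cytosolic dismutase, had 12.72 and 12.76 in the sunitinib libraries of brown fat, against 12.45 and 12.49 in the vehicle libraries (0.27 ± 0.07, adjusted p = 0.228). Catalase (Cat) was within -0.10 and 0.04 in every tissue, and Nqo1, a quinone reductase often used as a readout of NRF2, was between -0.30 and 0.13. In 1 fit over the 4 tissues, Sod3 passed in epididymal fat with an adjusted p of 0.0109.

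Markers of other cells moved with sunitinib in epididymal fat. Of 16 macrophage markers tested, 12 fell and all 16 were on the negative side, with a median of -0.80. Their mean level was 9.77 and 9.80 with sunitinib, against 10.67 and 10.69 with vehicle. Of 15 epithelial markers, 3 rose (Cldn7, Esrp1 and Cldn1) and all 15 were on the positive side, with a mean level of 7.54 and 7.35 with sunitinib, against 6.08 and 6.59 with vehicle. Epcam was at 8.35 and 8.93 with sunitinib, against 6.54 and 7.62 with vehicle. Of the epididymal duct list, 10 genes were in the table and 8 of these were below the level tested. Crisp1 of that list was at 12.66 in sunitinib replicate 1 and 5.98 in sunitinib replicate 2, against 6.21 and 6.05 with vehicle. The share of these cells in the differences of Gpx3, Gsta4, Gstt1, Gsta3, Sod3, Sod2 and Hmox1 was not tested, and in such bulk RNA fewer cells of a type and less RNA per cell cannot be told apart. Adipocyte markers had a median difference of 0.08, with 0 of 16 passing.

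Endothelial markers were on the positive side for 14 of 14 in brown fat (median 0.34, mean level 9.94 and 9.82 with sunitinib, against 9.68 and 9.37 with vehicle), and 0 of them passed. They were on the positive side for 0 of 14 in epididymal fat (median -0.38, mean level 9.23 and 9.29 with sunitinib, against 9.44 and 9.80 with vehicle) and for 0 of 14 in inguinal fat (median -0.39, 9.69 and 9.50 with sunitinib, against 10 and 9.93 with vehicle), with 0 passing in each. In inguinal fat, macrophage markers were on the positive side for 1 of 16 (median -0.40, mean level 9.06 and 9.29 with sunitinib, against 9.71 and 9.39 with vehicle). Fibroblast markers were so for 0 of 10 there (median -0.56, 11.82 and 11.45 with sunitinib, against 12.23 and 12.07 with vehicle), and 0 of either list passed. In brown fat, macrophage markers were on the positive side for 0 of 15 (median -0.10) and fibroblast markers for 1 of 10 (median -0.14). In liver this held for 2 of 14 endothelial (median -0.11), 3 of 15 macrophage (-0.08), 1 of 8 fibroblast (-0.10) and 6 of 14 hepatocyte markers (-0.07). Of these lists too, 0 markers passed. The part of these cells in the values of Sod3, Sod2 and Hmox1 in inguinal fat, and of the members in brown fat and liver, was not tested.

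The effect of sunitinib itself was compared between tissues for each of 6 pairs, as the difference of the within-tissue differences. Each fit took 1 spread per gene over both tissues and treated the libraries as independent. Whether tissues came from the same mice is not in the labels. The SD over genes of the difference between the sunitinib libraries was 0.12 in brown, 0.26 in epididymal and 0.59 in inguinal fat and 0.12 in liver. Between the vehicle libraries it was 0.30, 0.15, 0.22 and 0.12. Between epididymal fat and liver 6 of 42 members tested in both differed, where 3.95% of all genes did. They were Gsta4 (1.56 ± 0.16, limma adjusted p = 0.00215), Gsta3 (1.12 ± 0.19, adjusted p = 0.0158), Gstt1 (0.96 ± 0.13, adjusted p = 0.00548), Gpx3 (0.90 ± 0.09, adjusted p = 0.00194), Gstt3 (0.78 ± 0.13, adjusted p = 0.0149) and Sod3 (-0.45 ± 0.10, adjusted p = 0.0427). The 4 transferases were higher with sunitinib in epididymal fat and lower in liver, while in liver Gpx3 was at 0.01 and Sod3 at -0.04, against 0.92 and -0.49 in epididymal fat. Of the 6, Gsta3, Gstt3 and Sod3 did not pass in epididymal fat alone, and none passed in liver alone. In a single fit over all 4 tissues, only Gsta4 and Gstt3 of these 6 passed. The count of members changed when 1 library was left out, and the share of all genes was not counted for such fits. Sod3 was lost without any 1 of the 8 libraries. Gsta3 was also lost without epididymal vehicle replicate 2 or liver sunitinib replicate 3 or liver vehicle replicate 2, and Gstt3 without liver sunitinib replicate 3 or either liver vehicle library.

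Between brown and epididymal fat 3 of 43 members differed, where 3.64% of all genes did. They were Gsta4 (-1.18 ± 0.17, limma adjusted p = 0.0149), Gsta3 (-1.0 ± 0.19, adjusted p = 0.0374) and Gsto1 (0.46 ± 0.09, adjusted p = 0.0448). In a single fit over the 4 tissues 0 of them passed. Gsta4 and Gsta3 were lost without either brown fat sunitinib library or without epididymal vehicle replicate 2. Gsta3 was also lost without brown fat vehicle replicate 2 or epididymal sunitinib replicate 1. Gsto1 passed in only 5 of 16 other settings and was lost without any 1 of the 8 libraries. With no filter on low values Gsta3 and Gsto1 were lost as well, and with a replicate block Gsto1 was. Both comparisons use the same epididymal libraries. In the other 4 pairs 0 members passed in limma, with 0.0314% of all genes between brown and inguinal fat, 0.0430% between inguinal fat and liver and 0 in the remaining pairs. At an unadjusted p below 0.05 there were 8 members for brown minus inguinal fat (13.6% of all genes), 12 for brown fat minus liver (14.4%), 2 for epididymal minus inguinal fat (10.1%) and 7 for inguinal fat minus liver (13.7%). The 2 between the white fats were Gclm and Nqo1, so the rise of Gpx3, Gsta4 and Gstt1 in epididymal fat is not shown to differ from inguinal fat. Some members did pass in each of these other 4 pairs when 1 library was left out. Inguinal sunitinib replicate 1 was such a library for the pairs with inguinal fat, and brown fat vehicle replicate 1 for brown fat minus liver. The share of all genes was not counted for such fits.

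**Figure D4:**
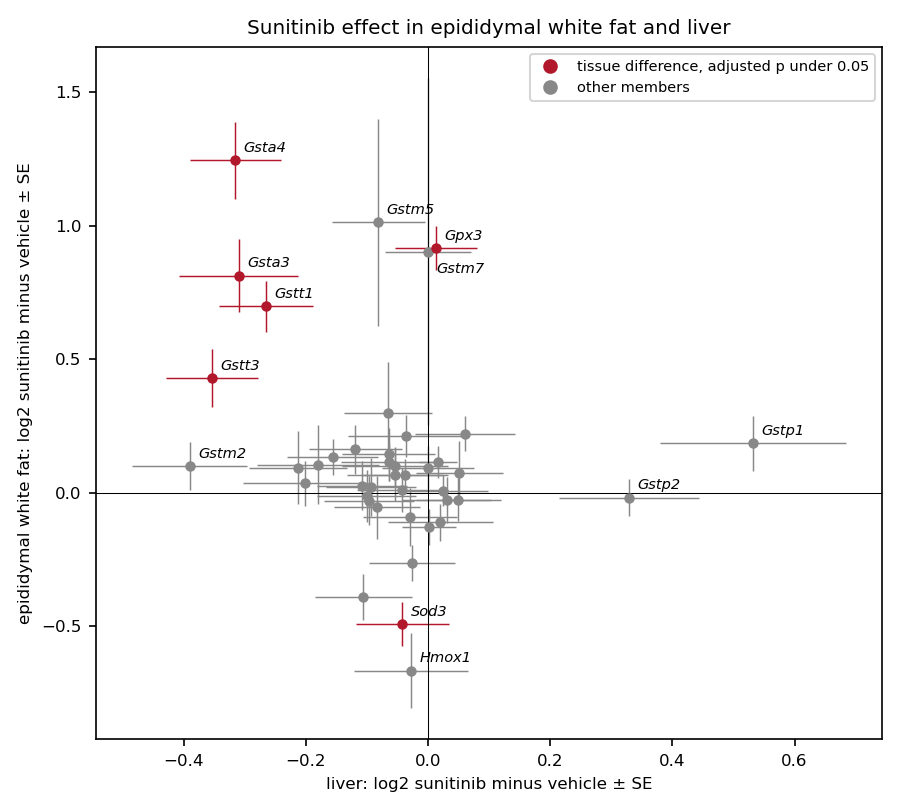
Log2 difference (sunitinib minus vehicle) in epididymal fat on the vertical axis against that in liver on the horizontal axis for the 42 members tested in both, with bars for the SE; red points are the 6 members whose difference between the tissues passed. Gsta4, Gsta3, Gstt1 and Gstt3 lie above 0 in fat and below 0 in liver.

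The vehicle libraries give the RNA levels of these enzymes without the drug. Levels were compared between tissues as a description only, since each tissue was normalized apart: the median vehicle level of 11113 genes was 7.77 in brown fat, 8.77 in epididymal fat, 8.72 in inguinal fat and 7.59 in liver. Of the 44 members 25 were highest in liver on the deposited scale and 30 relative to the median of each table. Brown fat was highest for 6 and 8 members on these scales, epididymal fat for 11 and 5, and inguinal fat for 2 and 1. The share of all genes highest in each tissue was not counted, so these counts have no background beside them. The highest tissue was the same on both scales for 36 members. Except where given relative to these medians, all other vehicle levels in this description are on the deposited scale.

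Mgst2, a microsomal enzyme that can form leukotriene C4, and Gsta3 had the widest ranges among the transferases on both scales. Mgst2 was at 8.17 and 8.53 in epididymal fat, at 7.99 and 8.24 in inguinal fat, at 5.75 and 6.02 in brown fat, and at -1.03 in both liver libraries. Gsta3 was at 14.93 and 15.14 in liver, 10.82 and 10.53 in epididymal fat, 9.90 and 10.31 in inguinal fat and 5.83 and 6.14 in brown fat. Its white fat libraries lay close together, well below liver and well above brown fat. Gstm6 ranged from 10.13 and 10.10 in liver to 3.40 and 3.31 in brown fat, and Gstt3 from 9.55 and 9.50 in liver to 4.26 and 4.31 in brown fat. Gstp1 was at 14.04 and 14.13 in liver, while its means in the fats lay between 10.59 and 11.35. Gstz1 was at 13.77 and 13.84 in liver, near the white fats at 13.85 to 14.18, and at 11.34 and 11.49 in brown fat. Relative to the median of each table Gstz1 was highest in liver, at 6.21, against 5.32 in epididymal and 5.28 in inguinal fat.

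Gpx3 was highest in brown fat at 14.29 and 14.19, followed by epididymal fat at 12.70 and 12.75 and inguinal fat at 12.64 and 12.54, with liver far below at 6.44 and 6.39. The peroxidases of the endoplasmic reticulum, Gpx7 and Gpx8, were lowest in liver too, with means of 4.08 and 3.23. Sod3 was at 13.81 and 13.71 in epididymal fat and at 13.47 and 13.55 in inguinal fat, against 11.45 and 11.26 in brown fat and 8.53 and 8.65 in liver. Mitochondrial Sod2 and Prdx3 were highest in brown fat, at means of 13.19 and 12.55, and lowest in liver on the deposited scale, at 11.38 and 10.59. Relative to the median of each table the white fats were lowest for both.

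The synthetic enzymes were highest in liver: Gclc was at 11.02 and 11.25 there, with 8.80 and 8.93 in epididymal fat, 8.73 and 8.91 in inguinal fat and 7.90 and 7.89 in brown fat, and the white fats did not differ beyond their spread. Prdx4, of the endoplasmic reticulum, was at 10.35 and 10.43 in liver and at 6.93 and 6.98 in brown fat. Txn1 was at 11.31 and 11.29 in liver, with means of 10.98 in epididymal fat, 10.53 in inguinal fat and 10.01 in brown fat. Hmox1 was at 10.55 and 10.90 in epididymal fat, 10.14 and 9.92 in inguinal fat, 9.23 and 8.99 in brown fat and 7.57 and 7.83 in liver. Relative to the median of each table, brown fat was not the lowest fat for Gclc, Txn1 or Hmox1, but stayed lowest for Prdx4. On that scale Gclc was at 0.12 in brown, 0.09 in epididymal and 0.1 in inguinal fat. In the same order Txn1 was at 2.24, 2.21 and 1.81, and Hmox1 at 1.34, 1.96 and 1.31.

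**Figure D5:**
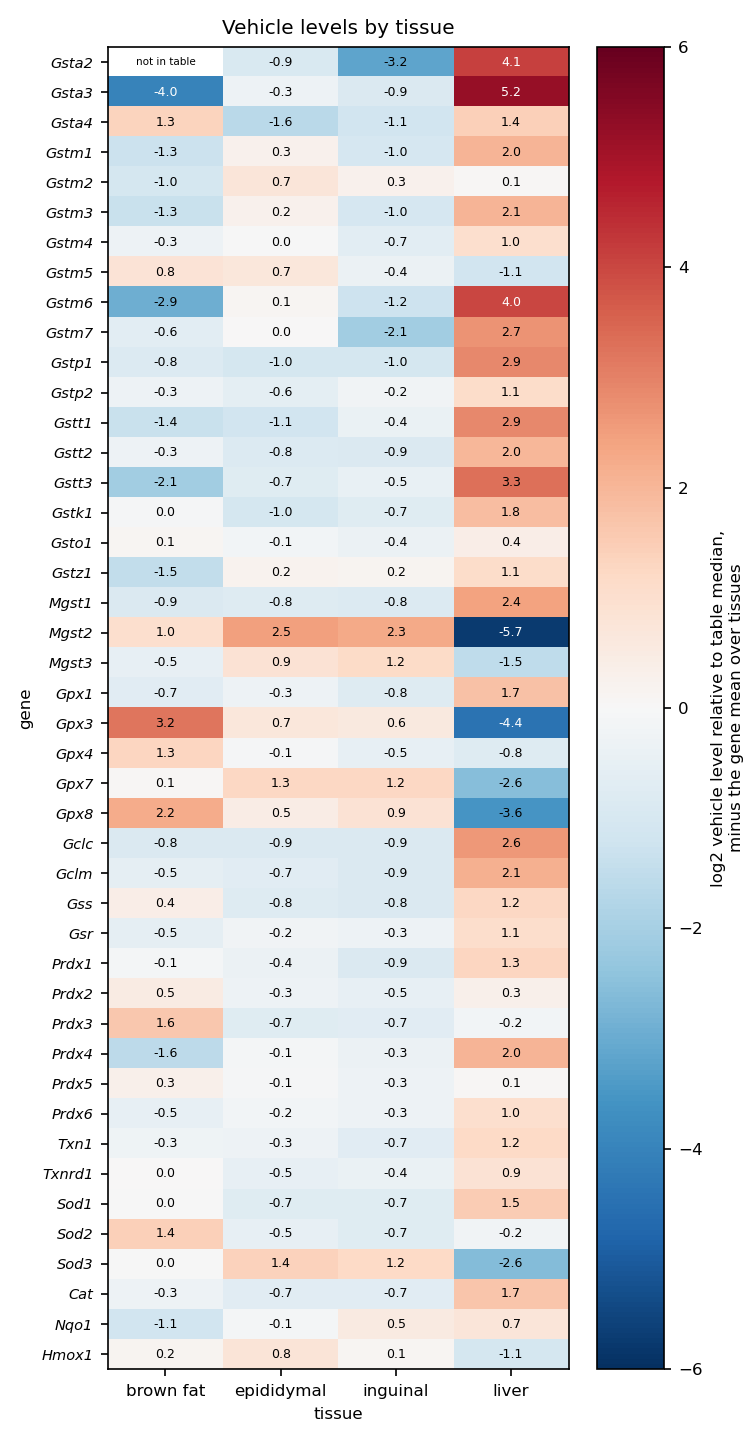
Vehicle level of each member by tissue (log2), taken relative to the median of its table and then to the gene's mean over tissues, as a colour scale with the value printed in each cell. Liver holds the highest value for 30 of the 44 members, and Gpx3, Gpx7, Gpx8, Sod3 and Mgst2 are among those lowest there. The share of all genes highest in liver was not counted.

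Other genes of the pathway were taken from 4 lists. Of 31 genes of glutathione turnover tested in epididymal fat, 0 rose and 3 fell. Anpep, an aminopeptidase that splits the cysteinylglycine left from glutathione, had 9.13 and 9.12 with sunitinib, against 10.35 and 10.41 with vehicle (-1.25 ± 0.06, limma adjusted p = 0.0121). Dpep2, a dipeptidase, had 6.70 and 6.69 with sunitinib, against 7.51 and 7.63 with vehicle (adjusted p = 0.0198). Hpgds, a prostaglandin D synthase of the sigma transferase class, had 7.03 and 7.23 with sunitinib, against 7.92 and 8.22 with vehicle (adjusted p = 0.0466). These 3 fell in the tissue where macrophage markers fell, and the part of those cells was not tested. In the list of NRF2 with its regulators and targets, 0 of 28 passed in epididymal fat and 1 of 28 in liver, where Cyp2a5 had 11.81 and 12.05 with sunitinib, against 12.65 and 12.62 with vehicle (-0.71 ± 0.09, adjusted p = 0.0178). A close copy, Cyp2a4, may share its reads. Nfe2l2, which encodes NRF2, differed by -0.16 to -0.05 and its inhibitor Keap1 by -0.03 to 0.07 over the 4 tissues, and neither passed. Of the other thioredoxin and glutaredoxin genes and of the genes that supply NADPH, 0 passed in any tissue, and brown and inguinal fat had 0 in all 4 lists.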

How the data were processed

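The deposited values are regularized log2 expression (rlog) per gene and library, with 1 table for each tissue, as the authors deposited them. The submitters' processing notes list DESeq2, bedtools, TopHat2 2.1.1, bcl2fastq 2.17.1.14 and the build mm9, with no roles. How reads were counted, with which annotation and with or without strand, is not given in the sources used here. Rlog values are shrunk towards each gene's mean, most at low counts, so differences of weakly expressed genes are understated.

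Groups came from the sample titles, which number the sunitinib libraries of liver 3 and 4, while their columns number them 1 and 2. The fit of each table used limma 3.58.1 (R 4.3.3, intensity trend, 2 residual degrees of freedom, two-sided) on genes with a mean of at least 3, which kept 13044, 15526, 14916 and 12394 genes in brown fat, epididymal fat, inguinal fat and liver. Benjamini-Hochberg adjusted p below 0.05 counts as passing. An error after ± is the SE of the fit with 2 libraries per group. Tissue differences were interaction contrasts. The fits were tested on simulated data. No library had the values of another. The tables held 21, 25, 21 and 20 symbols turned into dates, which were not used.

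The members and lists were chosen with earlier results of these data known. Library values are given for members that passed, the 5 with the smallest p per tissue, members of the tissue differences and, per role, the member with the widest vehicle range. Members named in 1 tissue are also given in others, and the few remaining ones were named after their values were seen. Shared 50-base stretches were counted in GENCODE vM21 transcripts on GRCm38, and promoters came from RefSeq on GRCm38.p6. No coordinates were converted from mm9. Other filters, scalings, moderation settings, 1 fit over the 4 tissues, a replicate block and leaving out each library were tried.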

Additional observations from a re-analysis of the deposited data

Results flagged for a closer look

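The effect of sunitinib differed between tissues for these members by an interaction contrast in limma, with Benjamini-Hochberg adjustment over all genes tested in both tissues of a pair. For epididymal fat minus liver the difference of the log2 differences was 1.56 for Gsta4 (adjusted p = 0.00215), 1.12 for Gsta3 (adjusted p = 0.0158), 0.963 for Gstt1 (adjusted p = 0.00548), 0.904 for Gpx3 (adjusted p = 0.00194), 0.784 for Gstt3 (adjusted p = 0.0149) and -0.451 for Sod3 (adjusted p = 0.0427). For brown minus epididymal fat it was -1.18 for Gsta4 (adjusted p = 0.0149), -1.0 for Gsta3 (adjusted p = 0.0374) and 0.456 for Gsto1 (adjusted p = 0.0448). In a single fit over the 4 tissues, 2 of these 9 passed, Gsta4 and Gstt3 for epididymal fat minus liver. The tables were shrunk separately by the authors, and the part of that in these differences was not tested.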

How the results depend on the processing

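The 29 single-gene results kept their direction in all 388 alternatives run. This was largely set in advance. The genes were chosen for a small p or for passing, and several settings leave the difference itself unchanged. In epididymal fat the count of members that passed was 3 in the reported fit (363 of all genes), 5 with a mean of at least 5 (569), 6 in 1 fit over the 4 tissues (309), 7 with the replicate block (678) and 0 to 4 when 1 library was left out (0 to 1121). It was 8 for inguinal fat in the fit over the 4 tissues, beside 2425 of all genes. Leaving out 1 library gave 0 to 9 members in brown fat, 0 to 9 in inguinal fat and 0 to 6 in liver, where the reported counts were 0. Such fits take their spread from the intact pair and assume that the lone library varies alike. For brown minus epididymal fat the count of 3 became 1 with no filter, 5 with quantile normalization and 0 in the fit over the 4 tissues. For epididymal fat minus liver the count of 6 became 2 in the fit over the 4 tissues. The fit over the 4 tissues gave 4 members for brown minus inguinal fat and 1 for inguinal fat minus liver, both 0 as reported. In each of these pairs the count rose above 0 in 3 of the other settings. In every pair the count also changed when 1 library was left out. For tissue differences the share of all genes was counted only in the reported fits, so these other counts have no background beside them. The cause was not tested. Relative to table medians, 5 and 1 members were highest in epididymal and inguinal fat, against 11 and 2.

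Replicate numbers shared by the groups do not establish pairs: with 2 pairs a tissue, the correlation of same-numbered deviations was -0.256 in brown fat, 0.224 in epididymal fat and 0.108 in inguinal fat. With the replicate block Gsta3 passed in epididymal fat (limma adjusted p = 0.0161). The block gave 0 members in brown and in inguinal fat, and a crossed block in brown fat, added after the data were seen, gave 0. In liver the titles number the sunitinib libraries 3 and 4, while their columns are numbered 1 and 2 like the vehicle ones. By column numbers the correlation was 0.435. A replicate block on them was also added after the data were seen. It gave 9 liver members, 2 higher and 7 lower, beside 757 of all genes. It also gave 9 members for epididymal fat minus liver, where the share of all genes was not counted. Depth is unknown, so no limit from counting can be given.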

Other observations

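Ggt1, which starts the breakdown of extracellular glutathione and is no member, varied with replicate number in epididymal fat as Gstm5, Gstm6 and Gstm7 did, a gene chosen after its values were seen. It had 7.50 and 8.76 with sunitinib, against 6.46 and 7.98 with vehicle (limma adjusted p = 0.463).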
